A study of Drosophila melanogaster with 2 samples.

Results

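The genes described here are the translation initiation factor genes of Drosophila melanogaster. They are the protein-coding genes whose symbol begins with eIF, which are 44 of the 13945 protein-coding genes examined. Chromatin immunoprecipitation followed by sequencing (ChIP-seq), which recovers DNA held by a protein, was performed with an anti-GFP antibody on whole embryos. The embryos were 0 to 4 h old and came from a transgenic CG2129-GFP strain, in which a CG2129-eGFP fusion was expressed. Both samples, biological replicates 1 and 2, carried the fusion and formed 1 group, so the design held no contrast and no test between conditions was made. Whole embryos mix cell types, the labels do not say what drives the fusion, and a control library was not analysed here.

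Initiation factors load the small ribosomal subunit and the initiator tRNA onto an mRNA and bring the subunits together at the start codon. eIF2 delivers the initiator tRNA with GTP and is recharged by eIF2B, eIF3 is the large scaffold on the small subunit, and the eIF4 factors recognise the cap and unwind the leader. Several genes have numbered extra copies, and some of these, such as eIF4G2 and eIF4E3, are known from the fly testis. Early embryos translate maternal mRNA before their own genome becomes fully active.

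A gene was called bound when a peak summit in the authors' pooled thresholded list lay within 500 bp of one of its transcription start sites (TSSs). That list held 2066 peaks on the arms examined, each at an irreproducible discovery rate (IDR) of 0.01 or lower, the rate being the expected share of peaks that do not repeat between rankings. By this rule 14 of the 44 eIF genes were bound (31.8%), against 17.3% of all protein-coding genes. The bound genes were spread over all groups: 3 of 10 eIF2 genes, 5 of 16 eIF3 genes, 3 of 13 eIF4 genes and 3 of the 5 others. The members were chosen with earlier results of these data known, so the share is a description and was given no test.

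The promoter sequences of 8 members show the bases at or beside the summits. They are printed on the gene's strand from the NCBI Release 6 sequence, whose coordinates are those of dm6, and run from up to 100 bases before the TSS nearest the summit to 10 bases from the TSS on. Where another gene starts on the opposite strand within that stretch, the sequence begins 10 bases inside that gene. Apart from these ends the sequence is intergenic or intronic in the annotation. Capitals mark TATCGAT on either strand, read as TATCGAT or ATCGATA. The full 8 bases, TATCGATA, are the DNA replication-related element (DRE) bound by the factor DREF, and such a site counts as 1 match on each strand. The first 4 have the full element close to a strong summit, eIF2Balpha and eIF4G2 have only the shorter form, eIF1A has neither in this stretch, and eIF4A has a strong peak that the thresholded lists leave out, with its summit upstream of the printed stretch.
eIF2gamma: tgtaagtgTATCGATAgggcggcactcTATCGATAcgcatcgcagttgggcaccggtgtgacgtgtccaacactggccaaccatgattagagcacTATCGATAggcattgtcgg
eIF3a: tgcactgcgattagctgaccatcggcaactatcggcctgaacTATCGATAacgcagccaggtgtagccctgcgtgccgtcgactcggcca
eIF3f1: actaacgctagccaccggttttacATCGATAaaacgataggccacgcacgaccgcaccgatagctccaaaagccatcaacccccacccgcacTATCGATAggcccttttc
eIF4E6: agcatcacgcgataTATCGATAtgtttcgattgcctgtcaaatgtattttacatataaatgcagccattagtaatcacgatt
eIF2Balpha: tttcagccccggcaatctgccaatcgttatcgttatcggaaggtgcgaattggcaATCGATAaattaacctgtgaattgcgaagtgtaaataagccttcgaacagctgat
eIF4G2: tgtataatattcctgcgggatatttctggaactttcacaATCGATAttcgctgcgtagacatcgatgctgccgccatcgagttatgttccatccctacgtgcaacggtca
eIF1A: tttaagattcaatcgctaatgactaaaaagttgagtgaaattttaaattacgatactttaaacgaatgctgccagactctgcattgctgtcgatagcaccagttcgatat
eIF4A: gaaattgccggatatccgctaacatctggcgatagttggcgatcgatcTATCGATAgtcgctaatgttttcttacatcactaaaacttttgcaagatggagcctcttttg
The stretches lie at 3R:15263449-15263562 on the minus strand (eIF2gamma), 3R:4433886-4433975 minus (eIF3a), 3R:4714173-4714282 minus (eIF3f1), 3R:29027165-29027246 minus (eIF4E6), 3R:29935879-29935988 minus (eIF2Balpha), 3R:23819228-23819337 minus (eIF4G2), 3R:18274565-18274674 plus (eIF1A) and 2L:5981664-5981773 plus (eIF4A).

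The eIF3 genes held the strongest bound promoters. The values are the authors' signal at the summit. The files do not say what its scale is, and the strongest peak had 333 in replicate 1 and 192 in replicate 2, so replicates are compared by percentile, the share of a ranked list's peaks with a lower signal. For eIF3c, a core subunit of the scaffold, the signal was 117.3 in replicate 1 and 118.9 in replicate 2. Its pooled signal of 232.5 had rank 75 of 2066, and the summit, in the peak 2R:17665427-17665806, lay 68 bp upstream of the TSS. For eIF3f1, a subunit of the MPN domain family, the signal was 129.3 in replicate 1 and 75.0 in replicate 2, with a pooled signal of 207.9 (rank 120) and a summit 37 bp upstream. Both genes lay above the 99.5th percentile in each replicate, and neither has a divergent neighbour within 500 bp.

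For eIF3a, the largest scaffold subunit, the signal was 65.5 in replicate 1 and 73.6 in replicate 2, with a pooled signal of 140.9 at rank 356. The summit lay 26 bp upstream of eIF3a and 44 bp upstream of CG1074, which starts on the opposite strand, so the peak cannot be given to 1 of the 2 genes. eIF3b, the RNA-binding scaffold subunit, differed between the replicates. Its signal was 61.0 in replicate 1, where it passed the threshold, and 18.6 in replicate 2, where it did not (percentiles 98.3 and 95.1). The pooled summit (82.5, rank 963), in the peak 2R:17535858-17536001, lay 315 bp upstream of eIF3b but 32 bp upstream of Patronin, a microtubule minus-end protein gene, and eIF3b was bound only under a window wider than 200 bp. eIF3j, a loosely attached subunit, had 21.4 and 21.3 in the replicates, outside both thresholded lists, and a pooled signal of 46.7 at rank 1605 in the peak 2R:9968833-9969236.

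The other 11 eIF3 genes were not bound. In the pooled ranked list, which holds 47806 peaks before the IDR threshold, 8 of them had a summit within 500 bp of a TSS. These signals ran from 38.7 at eIF3l through 27.2 at eIF3k, 23.5 at eIF3d1, 20.7 at eIF3e, 20.2 at eIF3g2, 18.3 at eIF3m and 17.6 at eIF3h down to 7.7 at eIF3f2. The lowest bound eIF3 signal was above all of them. eIF3d2, eIF3g1 and eIF3i had no peak there. Within this 1 complex the subunit genes ran from rank 75 to no listed peak.

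**Figure D1:**
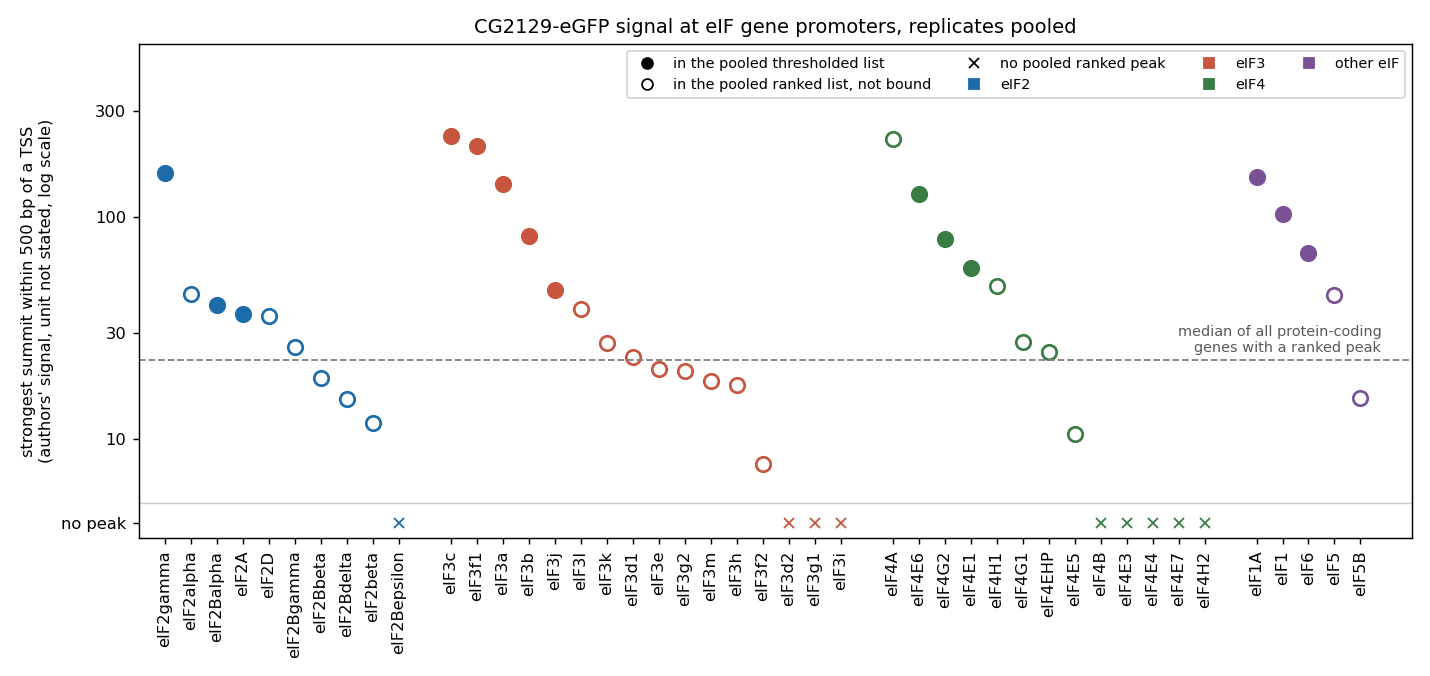
Strongest pooled summit within 500 bp of a TSS for each of the 44 eIF genes (authors' signal, log axis, scale not stated), ordered by signal within each group. Filled points are bound genes, open points have a pooled ranked peak but are not bound, crosses have no such peak, and the dashed line is the median of all protein-coding genes with a ranked peak (22.8). eIF4A is the open point at 224.7, above the bound genes of its group.

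Of the eIF2 genes, eIF2gamma, the GTP-binding subunit, had the strongest signal. Its signal was 81.2 in replicate 1 and 85.1 in replicate 2, and the pooled signal was 157.3 at rank 260. The summit lay 75 bp upstream of a TSS that eIF2gamma shares with Su(var)3-9, the gene of a histone H3K9 methyltransferase, and 19 bp upstream of Set, a histone chaperone gene on the opposite strand. The printed stretch between these starts holds 3 copies of TATCGATA, the most of any bound member, with 1 of them centred 1.5 bp from the summit.

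The remaining bound eIF2 genes were near the foot of the list. eIF2Balpha, a regulatory subunit of the exchange factor eIF2B, had 30.6 in replicate 1 and 14.0 in replicate 2, with a pooled signal of 40.3 at rank 1744. Its summit lay 18 bp upstream of eIF2Balpha and 72 bp upstream of Vps13B, which starts on the opposite strand, so the peak cannot be given to 1 of them. eIF2A, which in other species can bring initiator tRNA to ribosomes without eIF2, had 24.0 and 11.5, with a pooled signal of 36.6 at rank 1805 in the peak 3L:21824724-21825127. Both genes stood higher in replicate 1, at percentiles of 96.1 and 94.8 against 89.3 and 80.6 in replicate 2. Neither was in a thresholded list of a single replicate or in the authors' conservative list. The median signal of the 3 bound eIF2 genes was 40.3, against 141 for eIF3, 79.7 for eIF4 and 91.1 for all bound protein-coding genes.

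eIF2alpha, the subunit whose phosphorylation slows initiation, was not bound. Its signal was 38.2 in replicate 1, which passed that replicate's list, and 22.0 in replicate 2, which did not, with summits 324 bp apart. In the pooled ranked list it had 45.2, above the 2 weak bound eIF2 genes, but a −log10 IDR of 1.08, under the 2 that the threshold asks for. eIF2D, known from other species as a factor in recycling and non-canonical initiation, had a pooled ranked signal of 35.8 and a −log10 IDR of 1.84. eIF2Bgamma (26.0), eIF2Bbeta (18.9), eIF2Bdelta (15.2) and eIF2beta (11.9) were lower, and eIF2Bepsilon, the catalytic subunit of eIF2B, had no pooled ranked peak. Of the 5 eIF2B genes 1 was bound (20%), close to the 17.3% of all protein-coding genes.

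Of the eIF4 genes, the bound ones were a cap-binding protein gene and 2 numbered copies. eIF4E1, the main cap-binding protein of the fly, has 4 annotated TSSs, and its summit lay 21 bp downstream of the nearest, the only bound eIF gene whose summit was not upstream. Its signal was 35.1 in replicate 1 and 33.7 in replicate 2, but the replicates' summits were 185 bp apart, the widest gap of the bound eIF genes. The pooled signal was 59.0 at rank 1354 in the peak 3L:9402237-9402640, which the conservative list held too. Of the replicates' thresholded lists only replicate 2's had a summit at eIF4E1, in the peak 3L:9402089-9402428.

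eIF4E6, a copy of the cap-binding protein gene, had 91.3 in replicate 1 and 33.5 in replicate 2, with summits 1 bp apart and a pooled signal of 126.5 at rank 450. The summit lay 59 bp upstream of eIF4E6 and 3 bp upstream of CG1951 on the opposite strand. eIF4G2, a copy of the scaffold protein gene eIF4G1 that male germ cells need for meiosis, had 48.8 and 30.2, with a pooled signal of 79.7 at rank 996, and shares its TSS with CG33111. In percentiles eIF4E6 stood at 99.3 and 97.8 in the replicates and eIF4G2 at 97.7 and 97.5, so that only eIF4E6 differed by more than 1 point. Yet eIF4E6 was in both replicates' thresholded lists, and eIF4G2 was only in that of replicate 1. In replicate 2 the ranked peak of eIF4G2 had a −log10 IDR of 0.0726. At both promoters another gene starts at least as near to the summit as the eIF4 copy does.

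eIF4A, the DEAD-box helicase that unwinds mRNA leaders, is not among the bound genes although its ranked peak was among the strongest. The signal was 126.1 in replicate 1 (rank 105 of 40649) and 108.9 in replicate 2 (rank 60 of 47445). The pooled ranked peak at 2L:5981450-5981778, with its summit 133 bp upstream of a TSS, had a signal of 224.7, rank 90 and a −log10 IDR of 5, the highest value the list gives. Only eIF3c had a higher pooled signal among the members. The peak is nevertheless absent from all 4 thresholded lists.

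A further pooled ranked peak near eIF4A, with a summit 367 bp past the end of the gene and a signal of 54.9, passed the IDR and was left out as well, and no peak within 1000 bp of the gene was kept in any thresholded list. The thresholded lists left out 47 of 2113 pooled ranked peaks at that IDR (2.22%), 43 of 2060 in the conservative list, 45 of 1720 in replicate 1 and 37 of 1383 in replicate 2. eIF4A was the only member among those genes in each case. The deposited readme text names more inputs for the thresholded lists than for the ranked ones without saying what they hold, and the cause of the gap was not tested.

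Among the other eIF4 genes, eIF4H1, a cofactor of the helicase, had a pooled ranked signal of 48.8. It was in the conservative list but not in the pooled thresholded list, with a −log10 IDR of 0.142 in 1 pooled ranked list and 2.47 in the other. eIF4G1, the scaffold that joins the cap-binding protein to the helicase, had 27.4. eIF4EHP, which represses caudal and hunchback mRNA in the early embryo, had 24.7, and eIF4E5 had 10.6. eIF4B, eIF4E3, eIF4E4, eIF4E7 and eIF4H2 had no pooled ranked peak.

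The remaining factors were bound in 3 of 5 cases. eIF1A, which with eIF1 keeps the small subunit scanning, had 89.6 in replicate 1 and 57.2 in replicate 2, with a pooled signal of 150.6 at rank 301 and a summit 94 bp upstream. Vps39, a gene of vesicle tethering, starts on the opposite strand 125 bp from that summit. eIF1, which guards start codon choice, had 62.8 and 49.4, with a pooled signal of 103.2 at rank 673 and a summit 53 bp upstream, in the peak 3L:3223086-3223489. RpL28, a ribosomal protein gene, starts on the opposite strand 328 bp from it.

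eIF6, which keeps the large ribosomal subunit from joining too early, had 30.5 in replicate 1 and 46.9 in replicate 2, with a pooled signal of 69.2 at rank 1164 in the peak 2R:23850153-23850556. Of the replicates' thresholded lists it passed only replicate 2's, and a noncoding antisense RNA gene starts 25 bp from its summit. eIF5, which triggers GTP hydrolysis on eIF2, had 44.7 in the pooled ranked list at a −log10 IDR of 1.98, just outside, and was in the conservative list. Its summit lay 396 bp upstream of eIF5 and 98 bp from exd, a homeodomain cofactor gene. eIF5B, the GTPase of subunit joining, had 15.3.

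Of the 10 numbered copies 2 were bound (20%), close to the 17.3% of all protein-coding genes, and of their 6 first copies 2 were bound (33.3%). The difference was not tested. By pooled ranked signal 7 of the 10 copies were below their first copy and 3 were above it, taking a gene with no ranked peak as lower. The numbered eIF4E copies were all set against the same eIF4E1 value, so the 10 comparisons are not independent. eIF3f1 was bound at 207.9 and eIF3f2 had 7.7, while eIF3d1 (23.5) and eIF4H1 (48.8) had a pooled ranked peak and eIF3d2 and eIF4H2 had none. eIF4E3, eIF4E4, eIF4E5 and eIF4E7 were all below eIF4E1. The copies above were eIF4G2, at 79.7 against 27.4 for eIF4G1, eIF4E6, at 126.5 against 59.0 for eIF4E1, and eIF3g2, at 20.2 where eIF3g1 had no ranked peak. The eIF3g2 peak had a −log10 IDR of 0.0629, and replicate 2's ranked list had no peak there. In the eIF3d, eIF3g and eIF4H pairs neither gene was bound, so these comparisons, in both directions, rest on unbound peaks. At the peaks of eIF4G2 and eIF4E6 another gene starts at least as near to the summit. Without the 10 copies 12 of 34 eIF genes were bound (35.3%).

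The replicates held most but not all of the bound genes. Replicate 1's own thresholded list had a summit at 10 of the 44 eIF genes (22.7%), against 14.9% of all protein-coding genes, and replicate 2's at 9 (20.5%), against 12.2%. The conservative list had 14 (31.8%), against 16.8%, of which 11 were also bound in the pooled list. It lacked eIF2A, eIF2Balpha and eIF3b and had eIF3l, eIF4H1 and eIF5 in their place. The pooled peaks that overlapped a peak in both replicates' lists by at least 50% of either length lay at 7 eIF genes (15.9%), against 10.6%. These were eIF1, eIF1A, eIF2gamma, eIF3a, eIF3c, eIF3f1 and eIF4E6, the strongest 7 of the 14 bound genes by pooled signal. Among the 14 bound genes 3 were in neither replicate's list, namely eIF2A, eIF2Balpha and eIF3j.

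The lists before the threshold reached most genes. The pooled ranked list had a summit at 35 of 44 eIF genes (79.5%), against 60.9% of all protein-coding genes. The ranked list of replicate 1 had 33 (75.0%) and that of replicate 2 had 34 (77.3%), both against 58.1%. Across the 28 eIF genes with a ranked peak in both replicates, the signals had a Spearman rho of 0.830 and a Pearson r of 0.819 on the log2 scale. Over the 6120 protein-coding genes with both, the values were 0.791 and 0.831. Genes are not independent replicates, and neighbouring genes can share a peak. The replicates' summits lay a median of 26 bp apart at the 14 bound genes (range 1 to 185) and 62.5 bp apart at the 14 unbound genes with both. Over the 2402 bound protein-coding genes with both, the median was 34 bp. Bound genes had already been selected by the IDR, so the difference between bound and unbound genes is no separate result.

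**Figure D2:**
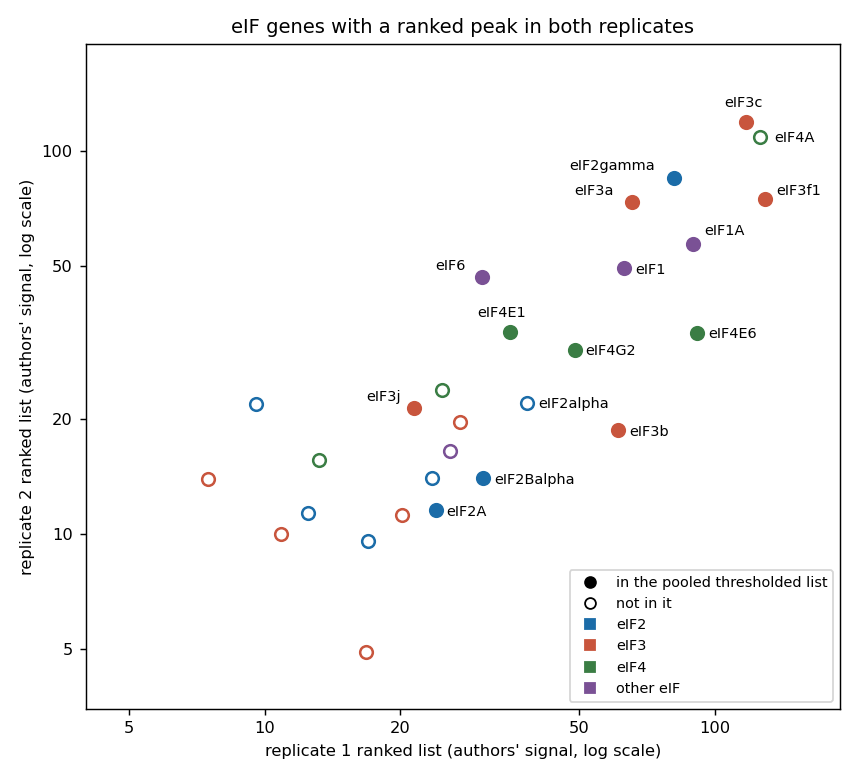
Signal at the 28 eIF genes with a ranked peak in both replicates, replicate 1 on the x axis and replicate 2 on the y axis (authors' signal, log axes). Filled points are bound genes, and colours are the groups. eIF3c and eIF4A lie at the upper right, and eIF3b (61.0 and 18.6) and eIF4E6 (91.3 and 33.5) lie toward replicate 1.

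Bound eIF genes and bound genes at large had like signals. The eIF genes' median pooled signal was 92.9 against 91.1 for all bound protein-coding genes, and the median percentile within the list was 60.4 against 59.6. In 4 equal parts of the list from the lowest signal to the highest, they numbered 3, 2, 3 and 6, and the bound protein-coding genes were 12.8%, 25.9%, 29.9% and 31.4%. Some of the genes share a peak with a neighbour, so these values are not independent between genes.

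The summits of bound genes lay just upstream of the start. At 13 of the 14 bound genes the summit was upstream, with a median position 53.5 bp before the TSS, against 84.8% upstream and a median of 70 bp before it over all bound genes. At the 21 eIF genes that were not bound but had a pooled ranked peak, 10 summits were upstream (47.6%). Their median distance from the TSS, in either direction, was 168 bp. Over all unbound protein-coding genes with a pooled ranked peak, 52.1% were upstream and the median distance was 162 bp.

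Some eIF genes start head to head with another protein-coding gene, meaning that the other gene runs away on the opposite strand from a TSS at most 500 bp upstream. This held for 18 of the 44 (40.9%), against 27.4% of all protein-coding genes. Of these 18, 7 were bound (38.9%), against 37.1% of all head to head genes, a share near the background. Of the 26 without such a neighbour, 7 were bound (26.9%), against 9.88% of all such genes, and these were eIF2A, eIF3c, eIF3f1, eIF3j, eIF4E1, eIF4G2 and eIF6. A peak between a pair counts for both genes, which raises the share of head to head genes by the way it is counted. When each peak was given to the protein-coding gene with the nearest TSS, 11 eIF genes were bound (25%), against 12.6% of all protein-coding genes. The 11 include eIF4G2, although CG33111 starts equally near to that summit. The genes that dropped out were eIF2gamma (to Set), eIF3b (to Patronin) and eIF4E6 (to CG1951).

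Short motifs were counted within 100 bp of each summit, on both strands. TATCGATA lay at 6 of the 14 bound eIF summits, against 34.8% of all bound genes, and the genes were eIF2A, eIF2gamma, eIF3a, eIF3f1, eIF4E6 and eIF6. TATCGAT, which every TATCGATA contains, lay at 10, against 61.0%, adding eIF1, eIF2Balpha, eIF4E1 and eIF4G2. At these 10 genes the nearest match was a median of 33.5 bp from the summit (range 1 to 57). Read against those shares, both counts lie near the background of bound genes.

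eIF1A, eIF3b, eIF3c and eIF3j had no TATCGAT at the summit, and eIF3c among them had the strongest signal of all bound members. The promoter windows of eIF1A and eIF3c, taken at 1 TSS per gene, do hold TATCGAT, but farther from the summit. The core of motif 7, a promoter motif of housekeeping fly genes spelled here CAGCNCTA, CAGCNCTG, CATCNCTA or CATCNCTG, lay at 7 bound eIF summits, against 37.6% of bound genes. It was at eIF1, eIF3b, eIF3c, eIF3f1, eIF4E6, eIF4G2 and eIF6. GGTCACACT lay at none of the 14, against 6.24%, and TATAAA lay at 4, against 32.4%. No match says only that these letters are absent from this window.

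Matches were also present at unbound promoters. Of the 21 unbound eIF genes with a pooled ranked peak, 6 had TATCGAT at that summit, against 10.7% of all such protein-coding genes. The 6 were eIF2alpha, eIF2Bbeta, eIF4A, eIF4G1, eIF4H1 and eIF5. Not all of them lacked a peak at the IDR threshold. The peak of eIF4A passed it but was left out, eIF4H1 and eIF5 were in the conservative list, and eIF2alpha was in replicate 1's list. eIF2Bbeta and eIF4G1 were in no thresholded list and did not pass the IDR threshold in any ranked list. TATCGATA lay at 4 of the 21, against 5.02%. In the window from 250 bp before to 50 bp after 1 TSS per gene, TATCGATA was in 12 of all 44 eIF promoters (27.3%) and in 8.94% of all protein-coding promoters. TATCGAT was in 21 (47.7%) and in 17.7%, motif 7 in 13 (29.5%) and in 18.7%, GGTCACACT in 3 (6.82%) and in 5.87%, and TATAAA in 20 (45.5%) and in 45.3%. These counts use sequence alone and not the peaks.

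The TCT initiator, a start site sequence known from ribosomal protein genes, was counted as CTTTC or CTTTT on the gene's strand with its C within 5 bp of a TSS. It was at 4 of the 44 eIF genes (9.09%), namely eIF3f1, eIF3i, eIF3m and eIF4A, against 5.13% of all protein-coding genes. Of these only eIF3f1 was bound.

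**Figure D3:**
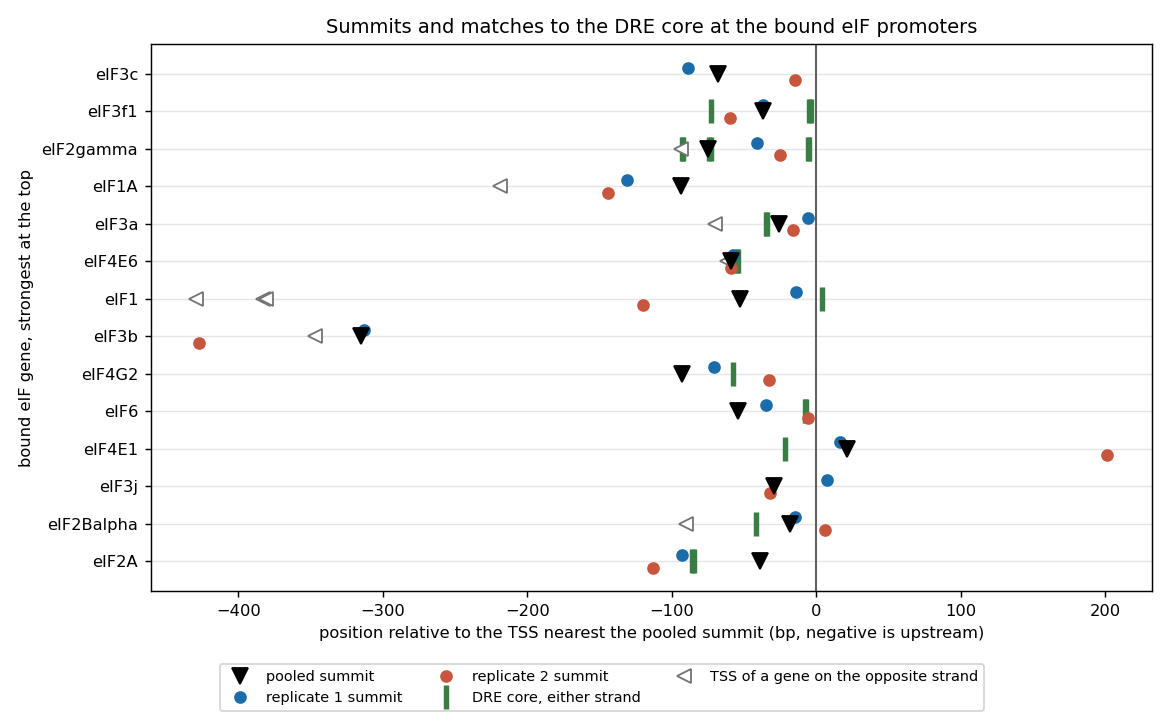
Positions at the 14 bound eIF promoters relative to the TSS nearest the pooled summit (bp, negative is upstream), strongest gene at the top. Triangles are pooled summits, circles are the replicates' summits from the ranked lists, and open arrows are TSSs of genes on the opposite strand. Green bars are matches to the 7-base core of the DRE within 100 bp of the pooled summit. Matches farther away, as at eIF1A and eIF3c, are not drawn. The pooled summits lie between 315 bp upstream (eIF3b) and 21 bp downstream (eIF4E1).

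Other genes of translation and its control were looked at beside the eIF genes, from a list of 27 symbols of which 26 matched a gene. Of these 12 were bound (46.2%), against 17.3% of all protein-coding genes. Paip2, a repressor of the poly(A)-binding protein, had a pooled signal of 239.3, and NAT1, an eIF4G-like protein gene, had 220.1. MCTS1, a partner of DENR in reinitiation, had 200.8 at a peak shared with rux. The elongation factor genes eEF2 (143.0) and eEF1gamma (138.2) and the release factor genes eRF1 (114.7) and eRF3 (47.6) were bound as well. The peaks of eRF1 and eRF3 also lay at Rbbp5 and SC35.

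The bound regulators included mxt (116.6), an eIF4E-binding protein gene, pix (104.8), the ribosome recycling ATPase gene, and bel (92.0), a DEAD-box helicase gene. PPP1R15 (80.3), which directs a phosphatase to eIF2alpha, and Gcn2 (43.0), an eIF2alpha kinase gene, were bound too. The peaks of mxt, pix and Gcn2 also lay at CG11927, Srp68 and Ugt35D1. pix was in the conservative list but in neither replicate's thresholded list, with ranked signals of 40.8 in replicate 1 and 53.5 in replicate 2. Gcn2 was in none of these 3 lists, and eRF3 passed replicate 2's list but not replicate 1's. The strongest pooled summits at mxt and MCTS1 lay more than 200 bp upstream of a TSS. The other 14 genes of the list were not bound. Among them were Thor, the 4E-binding protein gene, with 37.3 in the pooled ranked list, and pAbp with 43.8. PEK, another eIF2alpha kinase gene, had 14.6 there. cup, an eIF4E-binding repressor in the germ line, and 4E-T had no pooled ranked peak.

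**Figure D4:**
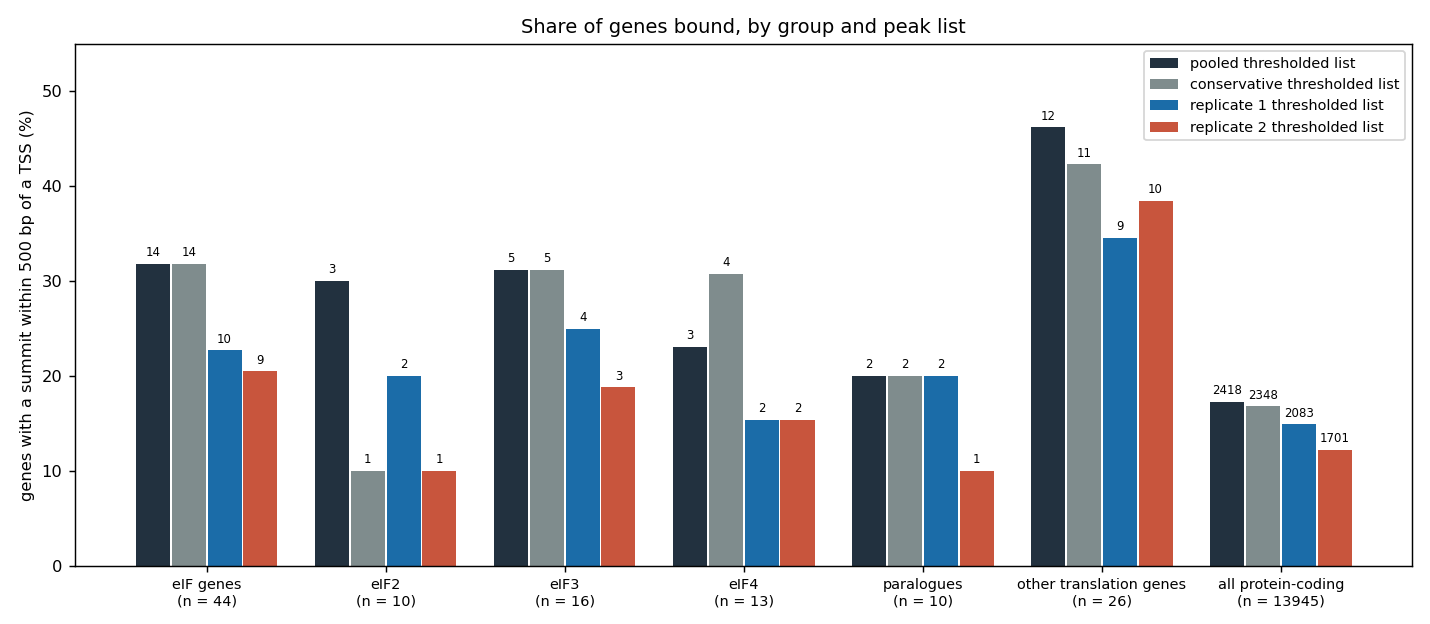
Share of genes with a summit within 500 bp of a TSS (%) in each of the 4 thresholded lists, for the eIF genes, their groups, the numbered copies, other translation genes and all protein-coding genes, with the number of bound genes above each bar. The eIF genes stand at 31.8% in the pooled list and all protein-coding genes at 17.3%.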

How the data were processed

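ChIP-seq peak lists of 2 biological replicates were used as the authors deposited them, on dm6 per the labels. Chromatin had been sheared by sonication to 200 to 800 bp, per the labels. Neither aligner nor peak caller is named in the sources used here. Read depth is unknown. The authors' deposited lists give each peak's summit, a signal of unstated scale, and a score set by the IDR with a maximum of 1000. The deposited ranked lists also give the −log10 of the IDR. Of each of the 4 ranked lists 8 columns were not used, because nothing ties them to a sample. 2 pooled ranked lists were deposited: the pooled thresholded list comes from the first and the conservative list from the second, as tested on their coordinates.

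Summits were assigned to TSSs of Ensembl release 115 on BDGP 6.54 within 500 bp, on X, 4 and the arms of chromosomes 2 and 3, in Python 3.11.15 with NumPy 2.4.6 and SciPy 1.17.1. Figures were drawn with matplotlib 3.10.9. Where a gene had several summits the strongest was kept, and rank and percentile were taken over the peaks of the list. Promoter windows ran from 250 bp before to 50 bp after the canonical TSS. The assignment was tested on simulated peaks. Every bound member was named, with unbound members by group, genes that share a peak, and the bound genes of the other translation list. The members and lists were chosen with earlier results of these data known. With 1 group no test was made. Alternatives covered the TSS distance, the list, shared peaks, each replicate alone, a stricter signal, nearest-gene assignment and a shorter motif.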

Additional observations from a re-analysis of the deposited data

How the results depend on the processing

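The count of bound eIF genes, 14, was 13 within 200 bp (all protein-coding genes 15.0%), 14 within 1000 bp (18.9%), 14 in the conservative list (16.8%) and 11 with each peak given to the nearest gene (12.6%). It was 7 with peaks shared by both replicates' lists (10.6%), 9 with peaks at or above the median signal of 77.6 (10.6%), 9 without replicate 1 (12.2%) and 10 without replicate 2 (14.9%). With the left-out peaks at the IDR kept, an alternative chosen after seeing the data, it was 15, adding eIF4A, and the share of all protein-coding genes was 17.7%. The 3 bound eIF2 genes became 1 in the conservative list, 1 with shared peaks, 1 at or above the median signal, and 1 to 2 with 1 replicate. The 5 bound eIF3 genes became 3 with shared peaks and 3 to 4 with 1 replicate, and the 3 bound eIF4 genes became 1 with shared peaks. The 2 bound numbered copies became 1 with shared peaks, 1 with the nearest gene and 1 to 2 with 1 replicate. The 12 other translation genes ranged from 9 to 12. TATCGATA at 6 bound summits became 10 with TATCGAT in its place. The median percentile of 60.4 was 58.7 in the conservative list and 69.8 to 72.6 with 1 replicate. In each range given for 1 replicate the lower value is the one without replicate 1. The lists of shared peaks and of stronger peaks hold fewer peaks by construction, and nearest-gene assignment gives fewer genes per peak. The replicates' own thresholded lists held 1675 peaks (replicate 1) and 1346 peaks (replicate 2), against 2066 in the pooled list. They are not parts of the pooled list, and why they held fewer peaks was not tested. For the conservative list the cause was not tested. Read depth is unknown, so the absence of a peak says only that none was listed. No paired analysis was possible because there is 1 group.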
